A study of Mus musculus with 6 samples.

Results

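The genes described here are 10 regulators of chromatin that have been linked to mutant p53 or belong to the SWI/SNF, Polycomb and DNA methylation machinery, namely Kmt2a, Kmt2d, Kat6a, Smarca4, Smarca2, Arid1a, Arid1b, Ezh2, Suz12 and Dnmt1. The rule picks them by name from a table of 36172 genes and uses no measured value, though the set was drawn up with earlier results of these data known. Of the 10, 7 carry these symbols there and 3 are listed under older symbols and were matched by gene identifier (Kmt2a as Mll1, Kmt2d as Mll2 and Kat6a as Myst3). All 10 passed the filter of at least 4 rpkm (mapped reads scaled to transcript length and library size) in at least 1 library, which 10042 genes passed.

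Poly(A) RNA was sequenced from organoids, which are 3-dimensional epithelial cultures, grown from small intestinal tumors of C57BL/6 mice aged 15 to 20 weeks. Every mouse carried the Apc Δ716 allele, which truncates Apc at codon 716, and the tumors had lost the other Apc allele. The Trp53+/+ organoids kept wild-type p53. The Trp53 flox/flox organoids carried 2 copies of an allele with a stop cassette ahead of the R270H missense mutation, which is null until Cre removes the cassette. In Trp53 R270H/R270H organoids the cassette had been removed by tamoxifen-activated villin-CreER, a Cre driven by an intestinal epithelial promoter, so that both alleles gave p53 R270H. Each genotype had 2 libraries from 2 mice whose organoids were prepared independently, 6 libraries in all. With 2 libraries against 2 an exact two-sided permutation test cannot give a p-value below 0.333 for a single gene, so the tests below rest on a spread that limma pools over genes.

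DNA in the nucleus is wrapped around histones, and the enzymes studied here decide how readily it is read. Kmt2a and Kmt2d are methyltransferases of the COMPASS family that mark active promoters and enhancers, and Kat6a (MOZ) is an acetyltransferase that works at active promoters. Smarca4 (BRG1) and Smarca2 (BRM) are the alternative motor subunits of the SWI/SNF remodelling complexes, and Arid1a and Arid1b are alternative DNA-binding subunits of the BAF form of these complexes. Ezh2 is the catalytic subunit of Polycomb repressive complex 2 (PRC2) and Suz12 a core subunit that it needs, and together they place a repressive methyl mark on histones. Dnmt1 copies DNA methylation onto the new strand after replication. In the intestine, Ezh2 and Dnmt1 are known for high levels in the dividing crypt cells. Work in human cancer cell lines has described Kmt2a, Kmt2d and Kat6a as targets of gain-of-function p53, and an interaction of mutant p53 with SWI/SNF.

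Sequences of the regions around the transcription start were looked at for the members, since several of these genes are known to be under cell-cycle control. RefSeq promoter windows (250 bases before to 50 after a listed start, GRCm38.p6) matched 9 of the 10 members with 12 windows; Kat6a had no entry. Each window was searched on both strands for an E2F-type element (TTTGGCGC, TTTCCCGC, TTTCGCGC or TTTGCCGC), for the CCAAT box (CCAAT), for the cell-cycle homology region (TTTGAA or TTCGAA) and for the p53 half-site consensus. The E2F-type element was found in 4 of the 12 windows, from 4 genes (Arid1a, Ezh2, Suz12 and Dnmt1), and in 2.3% of all 32851 windows. A CCAAT box was found in 4 of the 12 windows and in 37.4% of all windows. The cell-cycle homology region was found in 2 windows (19.2% of all), and the p53 half-site in 0 (8.4% of all). The 4 windows below belong to the PRC2 pair, to Dnmt1 and to Smarca2, whose levels are compared further on, and capitals mark the E2F-type and CCAAT letters. In the Dnmt1 window a CCAAT match on the plus strand overlaps another on the minus strand. The Ezh2 window lies on the minus strand at chr6:47594981-47595280 and the Suz12 window on the plus strand at chr11:79992856-79993155. That of Dnmt1, the third of its 3 listed starts, is on the minus strand at chr9:20952574-20952873. The Smarca2 window is on the plus strand at chr19:26604910-26605209 and holds none of the marked letters.
Ezh2: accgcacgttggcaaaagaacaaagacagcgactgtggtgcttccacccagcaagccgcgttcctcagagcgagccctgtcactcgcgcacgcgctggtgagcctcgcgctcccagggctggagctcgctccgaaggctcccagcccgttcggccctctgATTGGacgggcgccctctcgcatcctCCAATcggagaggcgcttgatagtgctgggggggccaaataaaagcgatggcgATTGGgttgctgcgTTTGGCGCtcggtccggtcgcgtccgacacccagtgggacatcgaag
Suz12: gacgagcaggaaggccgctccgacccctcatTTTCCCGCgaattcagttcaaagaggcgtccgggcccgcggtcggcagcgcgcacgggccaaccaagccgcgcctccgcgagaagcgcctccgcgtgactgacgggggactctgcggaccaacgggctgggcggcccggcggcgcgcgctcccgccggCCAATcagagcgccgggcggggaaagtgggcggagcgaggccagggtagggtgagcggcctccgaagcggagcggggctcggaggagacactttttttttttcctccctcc
Dnmt1: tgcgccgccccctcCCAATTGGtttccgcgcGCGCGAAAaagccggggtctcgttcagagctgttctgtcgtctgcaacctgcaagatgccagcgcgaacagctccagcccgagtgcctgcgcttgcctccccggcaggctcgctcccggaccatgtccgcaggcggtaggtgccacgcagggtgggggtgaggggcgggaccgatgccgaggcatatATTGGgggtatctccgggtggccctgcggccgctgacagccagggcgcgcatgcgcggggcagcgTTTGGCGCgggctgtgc
Smarca2: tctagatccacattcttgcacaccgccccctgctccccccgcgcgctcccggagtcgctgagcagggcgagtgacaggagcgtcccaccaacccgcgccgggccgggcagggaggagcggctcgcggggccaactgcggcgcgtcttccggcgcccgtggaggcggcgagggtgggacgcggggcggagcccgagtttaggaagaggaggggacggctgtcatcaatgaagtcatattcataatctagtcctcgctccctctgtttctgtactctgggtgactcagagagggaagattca
A match of letters is a description of the window and not evidence of binding. The E2F-type element starts at base 3 after the start in Ezh2 and 219 bases before it in Suz12. These windows are rich in G and C, with 64.3% in Ezh2, 71.0% in Suz12, 69.7% in Dnmt1 and 65.7% in Smarca2 against a median of 52.7% over all windows, and the shares above were not adjusted for this.

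Trp53 itself was read at 75.9 and 74.3 rpkm in Trp53+/+ organoids, 1.73 and 2.48 rpkm in Trp53 flox/flox organoids and 72.8 and 82.7 rpkm in Trp53 R270H/R270H organoids, which matches the labels. No depth is given with the values. Read steps in 6 to 19 short genes per library put it at about 44.2 to 48.4 M mapped reads, with the fewest genes, 6, behind the value for Trp53 flox/flox replicate 1. At that depth a member's value rested on about 1440 to 18500 reads, so that counting error alone is at most about 2.64% (1 SD). The Trp53 flox/flox libraries were the least alike. The correlation of log2 values across the tested genes was 0.932 between them, against 0.996 for Trp53+/+ and 0.993 for Trp53 R270H/R270H, and the median SD was 0.25, 0.046 and 0.062 on the log2 scale in the same order. Epithelial markers (Epcam, Cdh1, Krt8 and 5 others) were expressed in every library. Their sum was 2920 and 2864 rpkm in Trp53+/+, 4557 and 4228 rpkm in Trp53 flox/flox and 2327 and 2506 rpkm in Trp53 R270H/R270H organoids. By limma over all 6 libraries 2 of the 8 were called higher with p53 lost and 1 lower with p53 R270H, each against wild type. With p53 R270H 4 were lower than with p53 lost. The shares of all tested genes called in these directions were 4.38%, 6.36% and 11% in the same order. The part of these marker differences in the members' values was not tested. Of 8 fibroblast markers 7 stayed under 4 rpkm throughout, and Acta2 reached 11.5 rpkm in Trp53 flox/flox replicate 2. In bulk RNA, fewer cells of a type and less RNA per cell cannot be told apart.

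All 10 regulators were expressed in every library. Since rpkm is per length, their levels can be ranked. In Trp53+/+ organoids Suz12 was highest at 70.3±0.71 rpkm (mean±s.d., n=2 for this and the following means), followed by Smarca4 at 54.0±1.4, Dnmt1 at 54.0±1.6 and Ezh2, whose values are given below. Smarca4 and Dnmt1 did not differ beyond their spread. Arid1a (24.0±0.12 rpkm) and Kat6a (19.3±0.47 rpkm) came next. The lowest were Smarca2 (9.73±0.75 rpkm), Kmt2a (8.16±0.17 rpkm), Arid1b (6.32±0.29 rpkm) and Kmt2d (5.20±0.049 rpkm), and these 4 stayed below 11 rpkm in all libraries. The values of each library are drawn in the plot of levels by genotype.

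**Figure D1:**
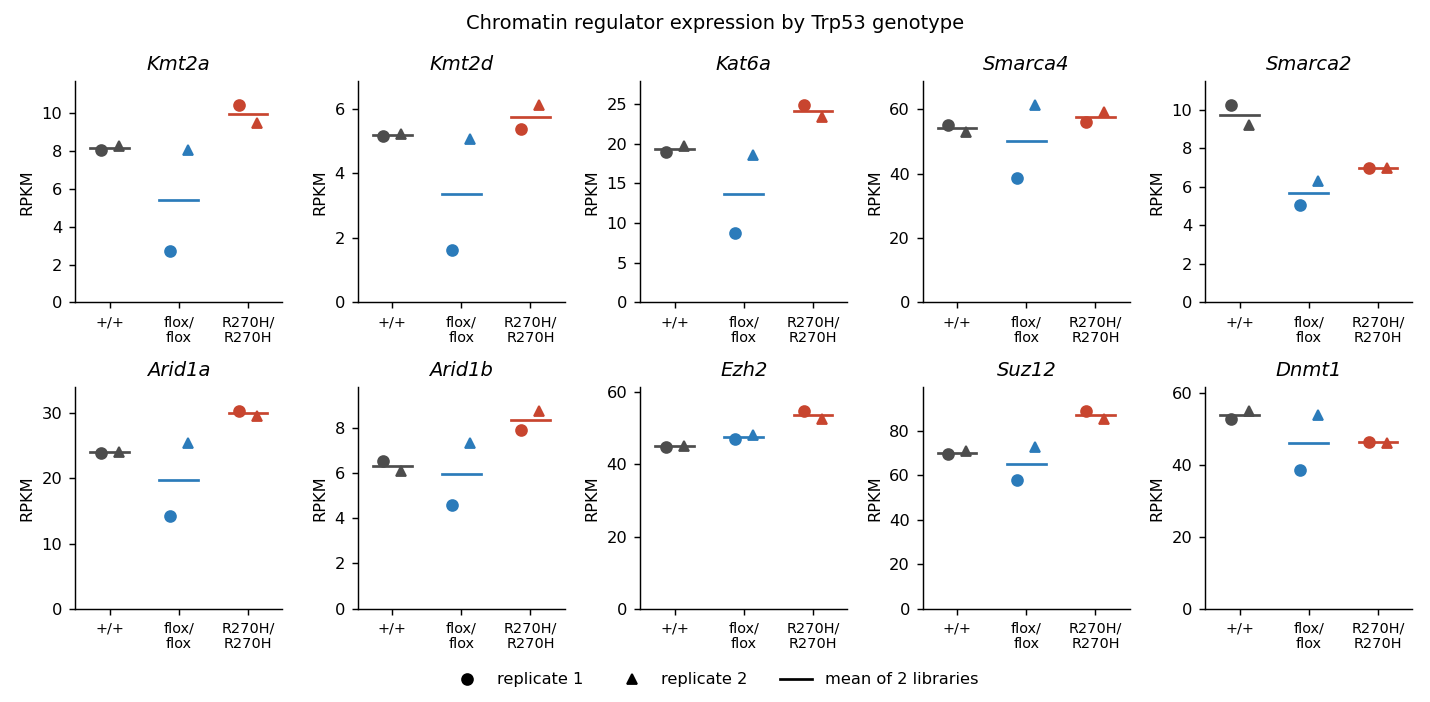
Expression of the 10 chromatin regulators (rpkm, linear axis from 0) in each library, by Trp53 genotype; circles are replicate 1, triangles replicate 2 and lines the mean of 2 libraries. Trp53 flox/flox replicate 1 is the lowest library for 9 genes, all but Ezh2, and both Trp53 R270H/R270H libraries are the highest for 7 genes.

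Among the histone methyltransferases, Kmt2a was at 8.03 and 8.28 rpkm in Trp53+/+, 2.72 and 8.08 rpkm in Trp53 flox/flox, and 10.4 and 9.49 rpkm in Trp53 R270H/R270H organoids. Both Trp53 R270H/R270H libraries stood above the other 4, while only replicate 1 of the Trp53 flox/flox pair was low. Kmt2d was at 5.16 and 5.23, 1.63 and 5.08, and 5.38 and 6.13 rpkm in the same order. Its pattern had the same shape, with a smaller margin between Trp53 R270H/R270H and Trp53+/+. For the acetyltransferase Kat6a the values were 19.0 and 19.7, 8.72 and 18.6, and 24.9 and 23.3 rpkm. In all 3 genes Trp53 flox/flox replicate 2 was close to the Trp53+/+ libraries and at least 2-fold above replicate 1, a gap that 9.22% of the tested genes shared.

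The SWI/SNF motor subunits differed from each other. Smarca4 was at 54.99 and 53.02 rpkm in Trp53+/+, 38.7 and 61.4 rpkm in Trp53 flox/flox, and 56.1 and 59.2 rpkm in Trp53 R270H/R270H organoids. The Trp53 flox/flox libraries were the lowest and the highest of the 6, with the other genotypes between them. Smarca2 was at 10.3 and 9.20, 5.05 and 6.31, and 6.971 and 6.999 rpkm. It was the 1 member for which both Trp53 flox/flox and both Trp53 R270H/R270H libraries lay below both Trp53+/+ libraries. The ratio of Smarca4 to Smarca2 within a library was accordingly 5.36 and 5.76 in Trp53+/+, 7.68 and 9.73 in Trp53 flox/flox and 8.04 and 8.46 in Trp53 R270H/R270H organoids. These transcripts are of similar length (6376 and 5921 nt), and the ratios of the Trp53+/+ libraries did not overlap with those of the other genotypes.

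Of the ARID subunits, Arid1a was at 23.9 and 24.1 rpkm in Trp53+/+, 14.2 and 25.5 rpkm in Trp53 flox/flox, and 30.4 and 29.6 rpkm in Trp53 R270H/R270H organoids. Arid1b, its alternative in the complex, was at 6.53 and 6.11, 4.61 and 7.35, and 7.91 and 8.76 rpkm. In both genes the Trp53 R270H/R270H libraries were the highest and the Trp53 flox/flox libraries lay on either side of the Trp53+/+ libraries. The ratio of Arid1a to Arid1b ranged from 3.07 to 3.94 over the 6 libraries, and the genotypes overlapped in it.

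Ezh2 had the narrowest replicate spread of the members in Trp53 flox/flox organoids. It was at 44.9 and 45.1 rpkm in Trp53+/+, 47.2 and 48.0 rpkm in Trp53 flox/flox, and 54.9 and 52.7 rpkm in Trp53 R270H/R270H organoids, so that the 3 genotypes did not overlap. Its whole range over the 6 libraries was 0.28 on the log2(rpkm+1) scale, the smallest among the members. Suz12 was at 69.8 and 70.8, 58.0 and 72.6, and 89.0 and 85.3 rpkm, with only the Trp53 R270H/R270H libraries standing apart. Dnmt1 ran the other way, at 52.9 and 55.1, 38.6 and 54.0, and 46.4 and 46.3 rpkm. Both Trp53 R270H/R270H values were below both Trp53+/+ values, while 1 Trp53 flox/flox value lay below all others and the other between the Trp53+/+ values.

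The first comparison asks whether organoids with p53 R270H differ from those with wild-type p53. Kmt2a, Kmt2d, Kat6a, Smarca4, Arid1a, Arid1b, Ezh2 and Suz12 had higher means in Trp53 R270H/R270H compared with Trp53+/+ organoids, by 1.07-fold (Smarca4) to 1.32-fold (Arid1b), and Smarca2 (0.718-fold) and Dnmt1 (0.859-fold) had lower ones. In none of the 10 did the libraries of the 2 genotypes overlap. The same held in the higher direction for 44.2% and in the lower direction for 37.6% of all tested genes. By limma on log2(rpkm+1) over all 6 libraries, 0 of the 10 passed an adjusted p of 0.05, against 5.86% of tested genes called higher and 6.36% called lower, and 2 members (Smarca2 and Ezh2) had an unadjusted p under 0.05, as did 32% of tested genes. The largest difference was that of Smarca2, at a log2 fold change of -0.42±0.14 (s.e., limma adjusted p=0.109). Ezh2 stood at 0.25±0.089 (limma adjusted p=0.127), Suz12 at 0.31±0.13 (limma adjusted p=0.188) and Kmt2a at 0.26±0.41 (limma adjusted p=0.713). The median over the 10 was 0.26, against 0.03 over all tested genes.

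This fit lends the wide spread between the Trp53 flox/flox libraries to the other genotypes. When only Trp53+/+ and Trp53 R270H/R270H libraries were fitted, limma called 6 members higher and 2 lower, with 31.2% of all tested genes called higher and 25.7% lower by the same fit. The 6 were Suz12 (adjusted p=0.0059), Arid1a (adjusted p=0.00623), Ezh2 (adjusted p=0.0102), Kat6a (adjusted p=0.0119), Arid1b (adjusted p=0.0179) and Kmt2a (adjusted p=0.0349), and the 2 lower were Smarca2 (adjusted p=0.0092) and Dnmt1 (adjusted p=0.0166). Kmt2d (log2 fold change 0.12±0.08, adjusted p=0.249) and Smarca4 (0.09±0.052, adjusted p=0.193) did not pass. Leaving out Trp53 flox/flox replicate 1 or replicate 2 gave 6 higher and 2 lower (31.2% of tested genes higher in each fit, and 25.8% and 25.9% lower). These fits are not a separate check of the calls. A single Trp53 flox/flox library adds no replicate spread, so the spread again came from the Trp53+/+ and Trp53 R270H/R270H libraries alone.

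Loss of p53 without a mutant protein is the second comparison. Smarca2 was the only member called by limma in it, lower in Trp53 flox/flox compared with Trp53+/+ organoids with a log2 fold change of -0.69±0.14 (s.e., limma adjusted p=0.0405) and a mean of 5.68±0.89 against 9.73±0.75 rpkm. Of all tested genes 6.9% were called lower and 4.38% higher. The estimate was -0.55 without Trp53 flox/flox replicate 1 and -0.83 without replicate 2, each from the 1 Trp53 flox/flox library left. The call was lost without either Trp53+/+ library (limma adjusted p=0.291 and 0.273), without either Trp53 R270H/R270H library (0.138 for each), with weights for each genotype (0.184), with only these 2 genotypes in the fit (0.139), and with the replicate number as a block (0.0896, and 0.0637 when the block swaps the numbers of the mutant pair). Kmt2d, Kat6a and Smarca2 were lower without overlap, as were 33.9% of tested genes, Ezh2 was higher without overlap (30.6%), and the other 6 overlapped. The median log2 fold change was -0.28 over the members and -0.02 over all tested genes. A fit with 1 Trp53 flox/flox library takes its spread from the other genotypes, so its calls do not measure variation between Trp53 flox/flox libraries. Without Trp53 flox/flox replicate 1 the members' median was 0.024, and without replicate 2 limma called 9 members lower, all but Ezh2, with 36.9% of all tested genes. Endothelial markers were also unequal across these libraries, with a sum over 5 genes of 23.0 and 21.6 rpkm in Trp53+/+, 5 rpkm (all at the floor of 1) and 27.7 rpkm in Trp53 flox/flox, and 5.20 and 5.13 rpkm in Trp53 R270H/R270H organoids. Cdh5, Tek and Vwf carried this sum and Pecam1 and Kdr were at the floor in every library. The sum of 8 immune markers ran from 9.06 to 22.8 rpkm with Ptprc and 5 others at the floor throughout, and Cd68 was at 10.2 and 9.87, 2.06 and 11.1, and 2.22 and 2.41 rpkm. Whether the organoids held endothelial or immune cells, and any part of such cells in the value of Smarca2, was not tested.

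The third comparison sets the mutant protein against its absence and shares libraries with both others. All 10 members had higher log2 means in Trp53 R270H/R270H compared with Trp53 flox/flox organoids, Dnmt1 by 0.02 only (-0.00015 under median-of-ratios scaling), but 0 were called by limma, against 13.6% of tested genes called higher and 11% lower. Kat6a (log2 fold change 0.86±0.33, s.e., limma adjusted p=0.108) and Suz12 (0.42±0.13, limma adjusted p=0.0743) had an unadjusted p under 0.05, as did 42.5% of tested genes. For Kmt2a the difference was 0.91±0.41 (limma adjusted p=0.153). The libraries did not overlap in 8 members, all but Smarca4 and Dnmt1 and all in the higher direction, while 36.8% of tested genes did not overlap in the higher and 31.2% in the lower direction. The median over the members was 0.43, against 0.03 for all tested genes. Leaving out a Trp53 flox/flox library leaves 1 in that genotype, so the spread comes from the Trp53+/+ and Trp53 R270H/R270H libraries alone. The median SD was 0.046 in Trp53+/+ and 0.062 in Trp53 R270H/R270H, against 0.25 in Trp53 flox/flox organoids. The adjusted p-values and calls of such fits therefore do not measure variation between Trp53 flox/flox libraries. Without Trp53 flox/flox replicate 1 limma called Kat6a (0.36, adjusted p=0.015), Suz12 (0.26, adjusted p=0.02) and Arid1a (0.23, adjusted p=0.0308) higher and Dnmt1 lower (-0.22, adjusted p=0.0334), with 29.1% of tested genes called higher and 23.9% lower. Without replicate 2 all 10 were called higher (38.5% of tested genes).

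**Figure D2:**
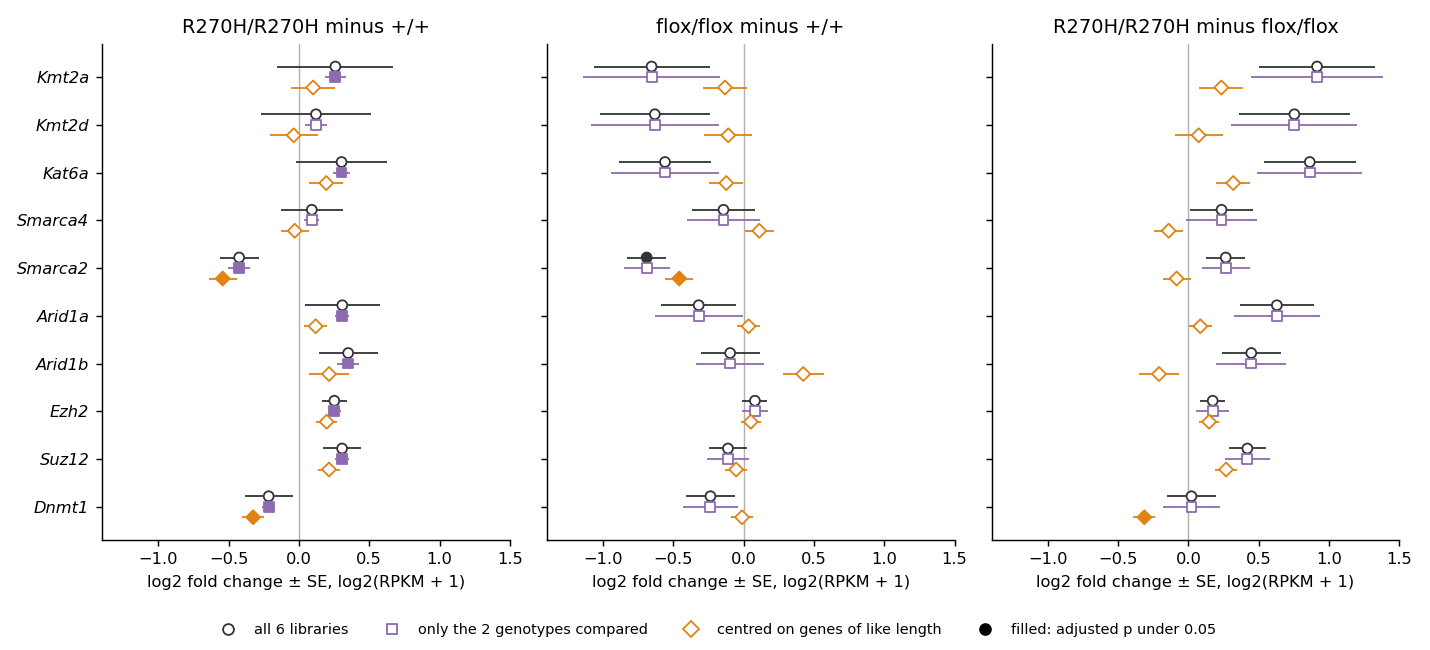
log2 fold change of each regulator with its s.e. (log2(rpkm+1) scale, limma) in the 3 comparisons, from all 6 libraries (circles), from only the 2 genotypes compared (squares) and after centring each library on the genes nearest in transcript length (diamonds); filled symbols have an adjusted p under 0.05. With all 6 libraries the only filled symbol is Smarca2 in Trp53 flox/flox relative to Trp53+/+, and the estimates for Kmt2a, Kmt2d and Kat6a move towards 0 after the centring.

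Both Trp53 R270H/R270H libraries were above the other 4 in 7 of the 10 members (all but Smarca4, Smarca2 and Dnmt1), as in 26.5% of tested genes. Trp53 flox/flox replicate 1 was the lowest of the 6 libraries in 9 members, as in 33.9% of tested genes. With that library left aside, 9 of the 10 members stayed within 1.5-fold over the other 5 libraries, from 1.16-fold (Smarca4) to 1.43-fold (Arid1b), and Smarca2 spanned 1.63-fold. Of all tested genes 51.4% stayed within 1.5-fold.

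Transcript length moved with these differences. The members are long, with 5 in the longest decile of tested genes and 8 in the longest 2 deciles. Kmt2d (19823 nt), Kmt2a (16470 nt), Arid1b (11325 nt), Kat6a (9113 nt) and Arid1a (8187 nt) are the longest, and Ezh2 is the shortest at 2787 nt. In Trp53 flox/flox replicate 1 the median deviation of all tested genes from the Trp53+/+ mean fell from 0.57 in the shortest decile to -0.68 in the longest on the log2 scale, and it was -1.07 for the 94 genes of at least 12000 nt. The corresponding medians were 0.08 and -0.04 in Trp53 flox/flox replicate 2, -0.22 and 0.19 in Trp53 R270H/R270H replicate 1, and -0.08 and 0.12 in replicate 2. Across tested genes, Spearman's rho between length and log2 fold change was 0.20 for Trp53 R270H/R270H relative to Trp53+/+, -0.36 for Trp53 flox/flox relative to Trp53+/+ and 0.45 for Trp53 R270H/R270H relative to Trp53 flox/flox; genes are not independent replicates, and the points share their libraries.

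**Figure D3:**
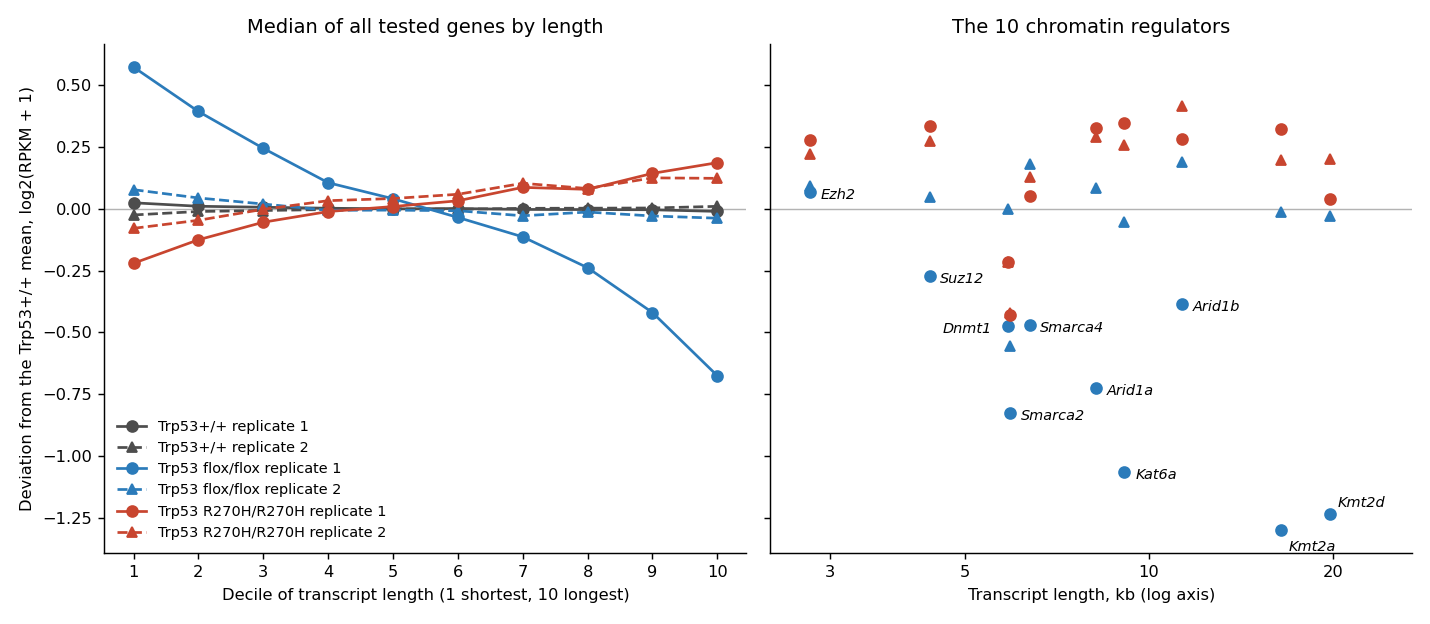
Deviation from the Trp53+/+ mean (log2(rpkm+1)) by transcript length, as the median of all tested genes in deciles of length for each library (left) and for the 10 regulators against length in kb on a log axis (right, circles replicate 1 and triangles replicate 2, coloured by genotype as on the left). In Trp53 flox/flox replicate 1 the median goes from 0.57 in the shortest decile to -0.68 in the longest, and Kmt2a, Kmt2d and Kat6a are its lowest members.

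Each member was therefore set beside the tested genes nearest to it in length, 100 on either side; Kmt2d and Kmt2a have fewer longer genes and share the longest ones as neighbours. In Trp53 flox/flox replicate 1 Kmt2a deviated by -1.30 and its length neighbours by -0.95, Kat6a by -1.06 and its neighbours by -0.78, and Arid1a by -0.72 and its neighbours by -0.69. Arid1b, with -0.38 against -0.95, had fallen less than its neighbours, and Smarca2, with -0.83 against -0.42, lay further down. All 10 members deviated in the same direction as their neighbours in that library. In Trp53 R270H/R270H organoids the neighbours lay 0.05 to 0.22 above Trp53+/+ in replicate 1 and 0.06 to 0.16 in replicate 2, and 8 members lay on the same side in each.

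After centring on these neighbours the median of the members was 0.11 for Trp53 R270H/R270H relative to Trp53+/+, -0.03 for Trp53 flox/flox relative to Trp53+/+ and 0.08 for Trp53 R270H/R270H relative to Trp53 flox/flox. In the first of these limma called Smarca2 (log2 fold change -0.54±0.1, adjusted p=0.023) and Dnmt1 (-0.33±0.079, adjusted p=0.043) lower and 0 members higher, with 10.2% of tested genes called higher and 11.9% lower. Ezh2 (0.20±0.073, adjusted p=0.11) and Suz12 (0.21±0.076, adjusted p=0.102) were slightly smaller than before. Smarca2 was called lower in Trp53 flox/flox (-0.46±0.1, adjusted p=0.0338; 12.2% of tested genes lower), and Dnmt1 lower in Trp53 R270H/R270H compared with Trp53 flox/flox (-0.31±0.079, adjusted p=0.0377; 14.6% lower). The estimates for Kmt2a and Kmt2d in Trp53 flox/flox were -0.13±0.16 and -0.11±0.17. Length can stand for other properties of a transcript, and the part of RNA quality was not tested.

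Partner genes were read from 6 lists of 82 genes, of which 73 passed the filter. The lists hold COMPASS, KAT6, SWI/SNF, PRC2, PRC1 and DNA methylation genes, and not all of these share a complex with a member. In Trp53 R270H/R270H relative to Trp53+/+ organoids limma called 8 higher and 1 lower, with a median of 0.26. In Trp53 flox/flox relative to Trp53+/+ it called 1 higher and 3 lower (median 0.01), and in Trp53 R270H/R270H relative to Trp53 flox/flox 15 higher and 5 lower (median 0.29). All 9 calls of the first comparison and all 4 of the second had the same direction and stayed past the threshold after the length centring, as did 12 of 15 and 4 of 5 in the third. The 9 calls of the first comparison also stayed with weights for each genotype and with only the 2 genotypes fitted. The 4 of the second (Men1 higher, and Phf10, Brd7 and Rnf2 lower) were all lost under both, with limma adjusted p from 0.0924 to 0.227 with weights and from 0.0938 to 0.138 with 2 genotypes. Of the 20 in the third 3 stayed with weights and 1, Brd7, with 2 genotypes. The counts are read against the shares of all tested genes given above for each comparison.

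**Figure D4:**
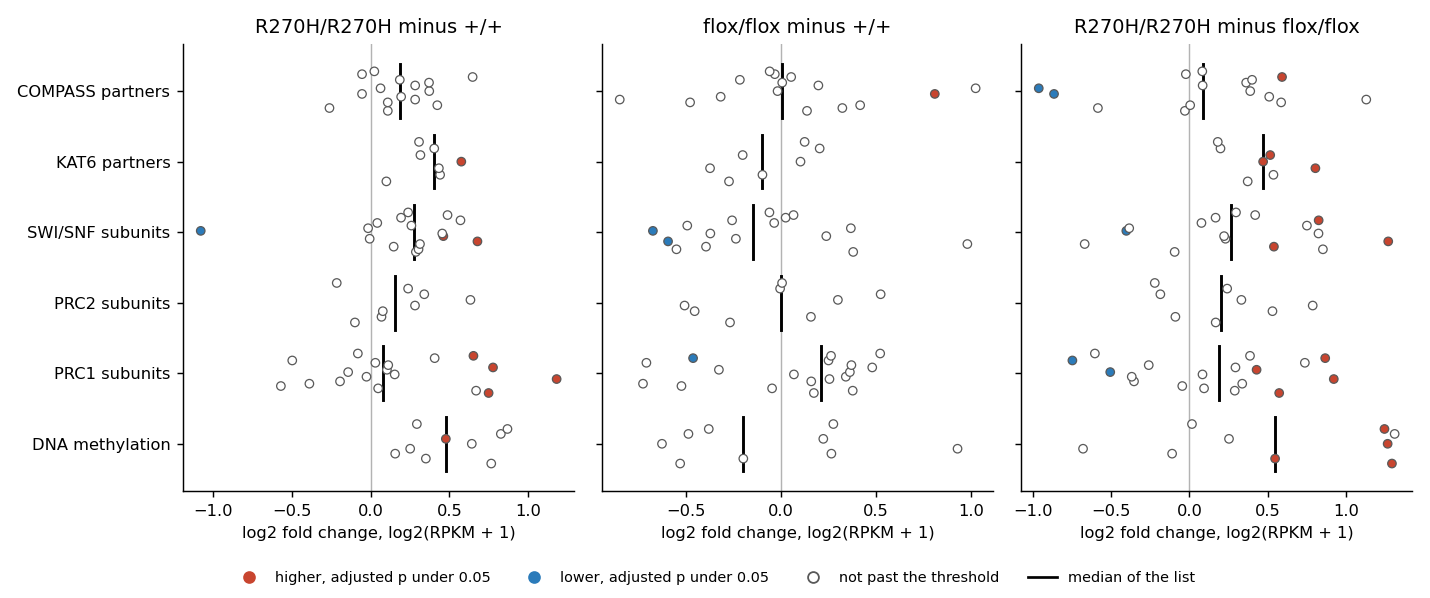
log2 fold change (log2(rpkm+1) scale) of 73 partner genes in 6 lists in each comparison; filled points passed an adjusted p of 0.05 in limma (red higher, blue lower) and black lines are list medians. Pcgf1 is furthest to the right and Phf10 furthest to the left in Trp53 R270H/R270H relative to Trp53+/+.

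The 1 partner called lower in the first comparison was in the SWI/SNF list. Phf10, a subunit of the PBAF form, was at 99.7 and 100.4 rpkm in Trp53+/+, 64.3 and 60.5 rpkm in Trp53 flox/flox and 47.4 and 46.5 rpkm in Trp53 R270H/R270H organoids. The genotypes did not overlap, and it fell in Trp53 R270H/R270H by a log2 fold change of -1.08 (limma adjusted p=0.0048) and in Trp53 flox/flox by -0.67 (limma adjusted p=0.0206). Brd7, another PBAF subunit that is also known as a cofactor of p53, was at 44.4 and 40.9, 30.6 and 25.4, and 70.3 and 67.2 rpkm. It rose in Trp53 R270H/R270H (0.68, limma adjusted p=0.0315) and fell in Trp53 flox/flox (-0.59, limma adjusted p=0.0435). Dpf2 was called higher in Trp53 R270H/R270H compared with Trp53+/+ (0.46, limma adjusted p=0.0383), and relative to Trp53 flox/flox Brd7, Smarcd1 and Bcl7a were called higher and Phf10 lower. After the length centring the calls of Bcl7a (from 0.54 to 0.25, limma adjusted p=0.251) and Phf10 (from -0.40 to -0.089, limma adjusted p=0.535) were lost. Of 16 SWI/SNF partners tested, 2 were called higher and 1 lower in the first comparison, 0 and 2 in the second, and 3 and 1 in the third. The shares of all tested genes were 5.86% and 6.36%, 4.38% and 6.9%, and 13.6% and 11% in the same order.

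Among 18 subunits of PRC1, another Polycomb complex, 4 were called higher in Trp53 R270H/R270H compared with Trp53+/+ organoids and 0 lower. The shares of all tested genes were 5.86% higher and 6.36% lower. Pcgf1, which defines a variant form of the complex, was at 5.67 and 5.58 rpkm in Trp53+/+, 7.31 and 6.53 rpkm in Trp53 flox/flox and 14.8 and 13.2 rpkm in Trp53 R270H/R270H organoids. Both Trp53 R270H/R270H libraries stood well above the rest (log2 fold change 1.18 relative to Trp53+/+, limma adjusted p=0.0071). Bmi1, a core subunit known for its part in stem cell renewal, was at 13.83 and 13.03, 15.8 and 14.8, and 23.9 and 22.6 rpkm (0.75, limma adjusted p=0.0152). Phc1 (0.78, limma adjusted p=0.0417) and Rybp (0.65, limma adjusted p=0.0276) also rose. Rnf2, the ubiquitin ligase of the complex, was lower in Trp53 flox/flox compared with Trp53+/+ (-0.46, limma adjusted p=0.0424), as were 6.9% of all tested genes. It was higher in Trp53 R270H/R270H compared with Trp53 flox/flox (0.87, limma adjusted p=0.007). There Bmi1, Pcgf1 and 1 further subunit were also called higher and Ring1 and Pcgf5 lower. In that comparison 13.6% of all tested genes were called higher and 11% lower. Of the 8 PRC2 partners tested, 0 were called in any comparison by limma over all 6 libraries, and 4 higher and 1 lower in Trp53 R270H/R270H relative to Trp53+/+ when only these were fitted. That fit called 31.2% of all tested genes higher and 25.7% lower.

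Of the COMPASS partners, Men1 (menin, which tethers the Kmt2a complex) was at 16.5 and 15.0 rpkm in Trp53+/+, 31.7 and 25.3 rpkm in Trp53 flox/flox and 13.9 and 16.4 rpkm in Trp53 R270H/R270H organoids. It was higher in Trp53 flox/flox (0.81, limma adjusted p=0.0359), while the other genotypes overlapped. Setd1a was higher and Men1 and Pagr1a lower in Trp53 R270H/R270H compared with Trp53 flox/flox organoids, out of 15 partners tested, and Setd1a lost its call after the length centring (from 0.59 to 0.21, limma adjusted p=0.128). Among 7 partners of KAT6 enzymes tested, Ing4 was called higher in Trp53 R270H/R270H relative to Trp53+/+ (0.58, limma adjusted p=0.0431), and Brpf3, Ing4 and Ing5 relative to Trp53 flox/flox. Of these Brpf3 lost its call after the length centring (from 0.81 to 0.41, limma adjusted p=0.299). The shares of all tested genes called higher were 5.86% relative to Trp53+/+ and 13.6% relative to Trp53 flox/flox.

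Of the 9 genes of the DNA methylation list tested, Tdg, a glycosylase that acts in demethylation, rose in Trp53 R270H/R270H relative to Trp53+/+ organoids (0.48, limma adjusted p=0.0459). Against Trp53 flox/flox organoids 4 of the 9 were called higher, among them Dnmt3a, Tet3 and Mbd1. The shares of all tested genes called higher were 5.86% relative to Trp53+/+ and 13.6% relative to Trp53 flox/flox. Dnmt3a, the de novo methyltransferase, was at 4.979 and 4.999 rpkm in Trp53+/+, 1.96 and 4.82 rpkm in Trp53 flox/flox and 9.01 and 9.34 rpkm in Trp53 R270H/R270H organoids. Its Trp53 R270H/R270H libraries were the highest, and replicate 1 of Trp53 flox/flox was low as in the long members (9685 nt). The ratio of Dnmt1 to Dnmt3a was 10.62 and 11.03 in Trp53+/+, 19.8 and 11.2 in Trp53 flox/flox, and 5.15 and 4.96 in Trp53 R270H/R270H organoids. The highest ratio came from Trp53 flox/flox replicate 1, where both genes were at their lowest.

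Because Ezh2, Suz12 and Dnmt1 are known to rise in dividing cells, 15 proliferation genes were read beside them. In Trp53 R270H/R270H relative to Trp53+/+ organoids 0 of the 15 were called (median 0.10). With only these genotypes fitted 6 were called higher, as were 31.2% of all tested genes. With weights for each genotype 4 were called higher, as were 3200 of the 10042 tested genes. In Trp53 flox/flox relative to Trp53+/+ Mcm4, Mcm5, Ccnb1 and Rrm2 were called higher (median 0.57), and in Trp53 R270H/R270H relative to Trp53 flox/flox Mcm5, Ccnb1, Aurkb and Rrm2 were called lower (median -0.45). Of all tested genes 4.38% were called higher in the former and 11% lower in the latter. More of the 15 passed in both without Trp53 flox/flox replicate 1, as did more of all tested genes. That fit leaves 1 library in the genotype. With weights or with only the 2 genotypes fitted 0 of the 15 passed in either comparison. Ezh2 stood at 0.08±0.089 in Trp53 flox/flox relative to Trp53+/+ (limma adjusted p=0.544) and Suz12 at -0.11±0.13 (limma adjusted p=0.569). The part of proliferation in the values of the members was not tested.

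The patterns over the 6 libraries were compared for the 3 members of widest range, Kmt2a (1.62 on the log2 scale), Kmt2d (1.44) and Kat6a (1.41). The tested genes with the highest Pearson correlation to Kmt2a were Arhgef12, Ash1l and Lrp6 (0.999 to 1.000), those to Kmt2d were Ehmt1, Nectin4 and 5830417I10Rik (0.995 to 0.997), and those to Kat6a included Btaf1 and Scaf8 (0.999 for each). These are descriptions over 6 points that share Trp53 flox/flox replicate 1, and 211, 85 and 256 tested genes respectively had a correlation over 0.98. Kmt2a and Kmt2d correlated at 0.982 over the 6 libraries and at 0.571 over the 5 without that library. Kmt2a and Kat6a correlated at 0.995 and 0.989, and Ezh2 and Suz12 at 0.776 and 0.984. Dnmt1 correlated with Suz12 at 0.266 over the 6 libraries and at -0.959 over the 5.

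Reads of 50 bases would separate the members from other genes almost everywhere. Of all 50-base windows of a transcript, the share also found in another gene was 1.71% in Kmt2d, 1.02% in Arid1a, 0.016% in Smarca4 and 0 in the other 7, so that Smarca4 and Smarca2, and Arid1a and Arid1b, shared none with each other. Exonic overlap with a neighbouring gene was at most 378 nt, in Kmt2a, with a gene on the other strand.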

How the data were processed

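The authors made stranded poly(A) libraries, mapped the reads to mm10 and computed gene RPKM with StrandNGS; its version and annotation are not given in the sources used here. The deposited RPKM table, with no value below 1, was the starting point. Genes reaching 4 RPKM in 1 or more of the 6 libraries were kept. Genotypes were compared on log2(RPKM + 1) by limma 3.58.1 in R 4.3.3 (lmFit, contrasts, eBayes with trend, all 6 libraries, no block), two-sided, with Benjamini-Hochberg adjustment over all 10042 genes at 0.05. Fold changes on this scale understate those of low genes, and values at the floor are unknown below it. Transcript lengths and places were taken from GENCODE M21 on GRCm38 (10000 genes, 99.6%), as the longest coding transcript. Depth was estimated from the steps of short genes. Tables and plots used Python 3.11.15, pandas 2.3.3 and matplotlib 3.10.9, and the code was tested on simulated data.

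The members, companion lists and markers were chosen with earlier results of these data known. Named are all members, up to 5 partner genes per list and comparison called by limma (largest first), the 3 genes most like each of the 3 members of widest range, and Trp53. The alternatives are listed in the closing section; the centring on genes nearest in length and the exchanged block were added after the data had been seen. Chromatin accessibility was not analysed here. Some genes named by this rule are not reported here.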

Additional observations from a re-analysis of the deposited data

How the results depend on the processing

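The alternatives were pseudocounts of 0.1 and 0, other filters, median-of-ratios and upper-quartile scaling, fits with 1 weight per genotype or with 2 genotypes alone, a replicate block, centring by chromosome, by length decile or on the genes nearest in length, and each library left out. Of the members' log2 fold changes under these, 478 kept direction and side of the threshold, 56 passed it newly, 8 lost it and 28 turned. With 2 libraries per genotype, values under 1 rpkm unknown and a pooled spread, the calls of members rest on the choice of fit. This held for larger differences too. Smarca2 in Trp53 flox/flox against Trp53+/+ had a log2 fold change of -0.69. Its limma adjusted p was 0.0405 over all 6 libraries and 0.139 with only these genotypes. A left-out library leaves 1 sample that is assumed to vary like the others. Except where a value or the construction of a setting shows it, the cause was not tested.

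In Trp53 R270H/R270H against Trp53+/+, members called numbered 7 with weights for each genotype, 8 with only these genotypes, 2 with either length centring, and 0 to 8 with a library left out. All genes called were 1227 (588 higher, 639 lower) with all 6 libraries, 1907 without the 4 rpkm filter, 5987 with weights, 5721 with only these genotypes, 2126 with centring by length decile, 2218 with centring on length neighbours, and 0 to 5732 with a library left out. Partner genes called were 48, 46, 18 and 18 with weights, only these genotypes and the length centrings, and 0 to 46 with a library left out. The member median was 0.14 with centring by length decile and 0.11 on length neighbours. Kmt2d turned to -0.018 and -0.037 and Smarca4 to -0.033 and -0.030 under these. The 0 calls without Trp53+/+ replicate 1 stood beside 1561 genes at an unadjusted p under 0.05.

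In Trp53 flox/flox against Trp53+/+, members called were 0 with weights and with only these genotypes, and 0 to 9 with a library left out. All genes called were 150, 47, 2204 and 2225 with weights, only these genotypes, length deciles and length neighbours, and 8 to 6875 with a library left out. Partner genes called were 0, 0, 10 and 10, and 0 to 51 with a library left out. The member median was 0.00238 with length deciles and -0.60 to 0.024 with a library left out. With length deciles and length neighbours, Smarca4 turned to 0.084 and 0.11, Arid1a to 0.036 and 0.035 and Arid1b to 0.26 and 0.42, and Suz12 to 0.013 with length deciles. Without Trp53 flox/flox replicate 1, Smarca4 was at 0.18, Arid1a at 0.083, Arid1b at 0.19, Suz12 at 0.047 and Dnmt1 at 0.00013; the lowest values with a library left out were -0.47, -0.72, -0.38, -0.27 and -0.47.

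In Trp53 R270H/R270H against Trp53 flox/flox, members called were 1 with either length centring and 0 to 10 with a library left out. All genes called were 534 with weights, 378 with only these genotypes and 166 to 7259 with a library left out. Partner genes called were 3 and 1, and 0 to 58 with a library left out. Beside the 1 member, length deciles called 1565 of all 10042 tested genes higher and 1473 lower, and length neighbours 1567 higher and 1470 lower. With length deciles and length neighbours, Smarca4 turned to -0.12 and -0.14, Smarca2 to -0.088 and -0.084, Arid1b to -0.049 and -0.21 and Dnmt1 to -0.33 and -0.31. Dnmt1 was also at -0.00015 with median-of-ratios scaling and -0.092 with centring by chromosome. Over the left-out libraries Smarca4 ran from -0.090 to 0.56 and Dnmt1 from -0.22 to 0.26, both lowest without Trp53 flox/flox replicate 1.

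The replicate numbers do not pair the libraries, each of which is from its own mouse. The deviations of libraries with the same number correlated at 0.117 for wild type with flox/flox, at -0.291 for wild type with R270H/R270H and at -0.196 for flox/flox with R270H/R270H. With the number as a block, all genes called were 550, 280 and 1156, partner genes 3, 0 and 7, and members 0, 0 and 0, in the order of the comparisons above. With the Trp53 R270H/R270H numbers exchanged in the block they were 941, 873 and 2276, 5, 2 and 15, and 0, 0 and 0.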
